A study of Mus musculus with 8 samples.

Results

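The mature microRNAs (miRNAs) mmu-miR-29a-3p, mmu-miR-29b-3p and mmu-miR-29c-3p, of the miR-29 family, and mmu-miR-148a-3p and mmu-miR-148b-3p, of the miR-148 family, to which miR-152-3p belongs, were followed in mouse sperm after a period without alcohol. They were chosen by name, as families known to target the messenger RNAs of DNA methyltransferases. Of 6 names listed, 5 had a row among the 952 miRNA features of the count table, and no value of miR-152-3p was analysed here. All 5 passed the filter on low counts, as did 228 of the miRNA features and 10234 of 1010917 features in all. Small RNA was sequenced in 4 libraries labelled EtOH-Cessation, from alcohol-treated C57BL/6J mice, and 4 labelled Control-Cessation, from control mice of the same strain. The labels give no age, dose or pooling. Nothing in them ties a library to an animal of its own, so the spread behind each p-value may be technical. The series title places the samples a month after treatment stopped, so the comparison addresses differences that remain after cessation. The labels call the material mature sperm, while the design text names the caput epididymidis.

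MicroRNAs guide Argonaute proteins to messenger RNAs that pair with the seed, bases 2 to 8 of the miRNA, and lower their translation and stability. DNMT1 copies methylation to the new strand at replication, and DNMT3A and DNMT3B place it anew. The miR-29 family is known to repress Dnmt3a and Dnmt3b, and also collagens and TET dioxygenases. The miR-148 family is known, mainly from human cells, to repress DNMT1. In the male germ line, methylation is laid down before birth in prospermatogonia, and mature sperm is transcriptionally silent, so its miRNAs are either left from spermatogenesis or taken up in the epididymis.

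The mature sequences are shown because the seed, in capitals, sets the target family and the other bases tell the members apart. They are from RefSeq (GRCm38.p6), 5′ to 3′.
miR-29a-3p: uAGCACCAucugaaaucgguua
miR-29b-3p: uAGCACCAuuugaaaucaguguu
miR-29c-3p: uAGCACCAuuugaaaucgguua
miR-148a-3p: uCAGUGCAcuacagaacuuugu
miR-148b-3p: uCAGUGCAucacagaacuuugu
Counted from the 5′ end, miR-29c-3p differs from miR-29a-3p by 1 base, C10U, and miR-148b-3p from miR-148a-3p by C9U and U10C. miR-29b-3p differs from miR-29a-3p at 4 of the 22 positions they share, C10U, G18A, U21G and A22U, and is 1 base longer. Of the 1679 mature mouse miRNAs in the RefSeq table, 3 carry the AGCACCA seed and 3 the CAGUGCA seed. Mir29a (chr6:31062673-31062694, minus strand) neighbours Mir29b-1 (chr6:31063025-31063047, minus strand), and Mir29c (chr1:195037600-195037621, plus strand) neighbours Mir29b-2 (chr1:195037091-195037113, plus strand). The counts of miR-29b-3p are thus the sum of 2 loci. Mir148a lies at chr6:51269829-51269850 on the minus strand and Mir148b at chr15:103285185-103285206 on the plus strand.

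Seed matches in the methyltransferase transcripts are shown because these transcripts are the targets for which the families were chosen. The letters searched were TGGTGCT for miR-29 and TGCACTG for miR-148, on the sense strand of the longest 3′ untranslated region per protein-coding gene (GENCODE M21, GRCm38), with the match in capitals.
Dnmt3a, chr12:3908560-3908589, plus strand: ccgacttcataaTGGTGCTttcaaaacagc
Dnmt3a, chr12:3908987-3909016, plus strand: tacaaaatgtacTGGTGCTttctgtctaag
Dnmt3b, chr2:153686615-153686644, plus strand: agtagcccggcaTGGTGCTcatgttctctt
Dnmt1, chr9:20907481-20907510, minus strand: cagagccccacgTGCACTGatgtttttaac
Dnmt3a held 5 miR-29 matches, of which the 2 nearest the stop codon are shown, and Dnmt3b held 1. Dnmt1 held 1 miR-148 match and no miR-29 match, and neither Dnmt3a nor Dnmt3b held a miR-148 match in this region. The miR-29 letters occurred in 13.1% and the miR-148 letters in 12.7% of 20982 untranslated regions. Among regions within 25% of the same length, 44.4% held the miR-29 letters for Dnmt3a and 12.3% for Dnmt3b, and 3.14% held the miR-148 letters for Dnmt1. Among other genes of DNA methylation, Tet1, Tet2, Tet3 and Tdg, which act in its removal, held 7, 5, 8 and 3 miR-29 matches, where 49.4%, 26.4%, 43.4% and 18.1% of regions of like length held any. Tdg also held 2 miR-148 matches, which overlap each other, and Uhrf1, a partner of DNMT1, held 1. Of regions of like length, 18.1% and 9.99% held any. A match is a description of letters, not a measured site.

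The libraries held 3116421 to 6805989 counts in the EtOH group and 4210785 to 4768713 in the control group. The miRNA class took 8.44% ± 1.71 of the counts in EtOH libraries and 20.2% ± 5.06 in controls (SD, n = 4 each). The miRNA levels below are scaled to the counts of all features, so this shift enters them. Control replicate 2 had the highest miRNA share, 27.7%, and the highest level of miR-29a-3p, miR-29b-3p, miR-29c-3p and miR-148b-3p, but not of miR-148a-3p. Among EtOH libraries, EtOH replicate 3 had the highest miRNA share, 10.1%, and the highest level of each of these miRNAs. Sperm transcripts (Prm1, Prm2, Tnp1, Tnp2, Odf1, Odf2, Akap4 and Smcp) were all present, with summed levels of 225 to 355 CPM (counts scaled to a fixed library total) in EtOH libraries and 442 to 550 in controls. The 10 epididymal epithelial transcripts listed summed to 656 to 15022 CPM in EtOH libraries, the highest in EtOH replicate 2, and 372 to 538 CPM in controls. Of their 84027 reads in EtOH libraries, Crisp1 had 61497, Cd52 15393 and Adam7 6674, and only these 3 had a tested feature. The others had few reads, and Spink2 and Lcn10 had lower means in EtOH libraries than in controls, while the rest had higher means. In bulk libraries, fewer cells of a type and less RNA per cell cannot be told apart.

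All 5 miRNAs had lower mean levels in EtOH libraries than in controls, and none passed the test over all features. Their log2 fold changes, EtOH over control, lay between -1.40 and -0.77, and the smallest adjusted p was 0.0922. In each of the 5, EtOH replicate 3 was the highest EtOH library and lay above the lowest control, so the groups overlapped. The order of the levels was the same in both groups, with miR-29a-3p highest, then miR-148a-3p, miR-29b-3p, miR-29c-3p and miR-148b-3p. Within 1 SD of the means, miR-29b-3p lay apart from miR-29c-3p in both groups, while every other pair of neighbours in this order overlapped in both groups. The mature RNAs are of nearly equal length, but ligation and amplification can differ between them.

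miR-29a-3p is the most abundant member of its family here. It had 1200, 0, 1670 and 1199 CPM in EtOH replicates 1 to 4, and 1335, 3634, 2409 and 2252 CPM in control replicates 1 to 4. The 0 in EtOH replicate 2 stands against 5632 to 13208 reads in the other 7 libraries, while that library held 959 reads of miR-29b-3p. The limit that a count of 0 allows, taken as 3 counts, was 0.817 CPM there. Isolated zeros of this kind, in libraries where at least 50 counts were predicted, affected 57 of the features tested, and their source was not tested. Many were mature miRNAs, of which 172 were tested with those features left out, against 199 with them. EtOH libraries averaged 1017 ± 713 CPM and controls 2408 ± 945 CPM (SD, n = 4 each), with a log2 fold change of -1.24 (SE 1.14, adjusted p = 0.536). Leaving out EtOH replicate 2 gave 1356 ± 272 CPM over the other EtOH libraries (SD, n = 3) and a log2 fold change of -0.70 (SE 0.36, adjusted p = 0.296). In the 3 EtOH libraries with reads, 2 lay below every control.

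miR-29b-3p, processed from both miR-29 loci, had 242, 261, 549 and 283 CPM in EtOH replicates 1 to 4, and 443, 1229, 847 and 534 CPM in control replicates 1 to 4. EtOH replicate 3 lay above control replicates 1 and 4, and the other EtOH libraries lay below every control. The means were 334 ± 144 CPM in EtOH libraries and 763 ± 356 CPM in controls (SD, n = 4 each), with a log2 fold change of -1.19 (SE 0.44, adjusted p = 0.104).

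miR-29c-3p, which differs from miR-29a-3p by a single base, had the smallest difference. It had 44.5, 48.2, 149 and 117 CPM in EtOH replicates 1 to 4, and 68.03, 282, 128 and 134 CPM in control replicates 1 to 4. EtOH replicates 3 and 4, whose title identifiers begin with EM, lay among the controls, and replicates 1 and 2, whose identifiers begin with M, lay below all of them. The means were 89.5 ± 51.6 CPM in EtOH libraries and 153 ± 91.1 CPM in controls (SD, n = 4 each), with a log2 fold change of -0.77 (SE 0.52, adjusted p = 0.368). Against all controls, the libraries with M identifiers alone gave -1.90 (adjusted p = 0.0419) and those with EM identifiers alone -0.031 (adjusted p = 0.987). The other members were also fitted lower with M than with EM identifiers. The values were -2.07 and -0.58 for miR-29a-3p, -1.77 and -0.68 for miR-29b-3p, -1.54 and -0.79 for miR-148a-3p, and -2.07 and -0.83 for miR-148b-3p. The median of the mature miRNAs tested went the same way, at -1.98 with M and -1.38 with EM identifiers. By library this split did not hold throughout. EtOH replicate 4, of the EM form, was the lowest EtOH library for miR-148a-3p and miR-148b-3p. The M value of miR-29a-3p includes the 0 in EtOH replicate 2, while EtOH replicates 1 and 4 had 1200 and 1199 CPM. With M identifiers 3 of the 5 were called lower (miR-29b-3p, miR-29c-3p and miR-148b-3p), beside 2.69% of all features and 43.0% of mature miRNAs. With EM identifiers 0 of the 5 were called by edgeR and none had an unadjusted p below 0.05, beside 0.0565% of all features and 0% of mature miRNAs called lower. The difference between the identifier forms was not tested, and the labels do not say what they mark.

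miR-148a-3p, the dominant member of its family, had 629, 547, 1074 and 512 CPM in EtOH replicates 1 to 4, and 1052, 1162, 2333 and 1559 CPM in control replicates 1 to 4. Only EtOH replicate 3 reached the level of the lowest control, control replicate 1. The means were 690 ± 261 CPM in EtOH libraries and 1526 ± 580 CPM in controls (SD, n = 4 each), with a log2 fold change of -1.14 (SE 0.40, adjusted p = 0.0944).

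miR-148b-3p had 33.2, 32.9, 93.0 and 28.1 CPM in EtOH replicates 1 to 4, and 104, 205, 93.4 and 91.8 CPM in control replicates 1 to 4. The lowest count behind these values, 121 reads in EtOH replicate 2, gives an exact 95% Poisson interval of 27.3 to 39.4 CPM for counting error. EtOH replicate 3 lay between the 2 lowest controls, and the other EtOH libraries lay below every control. The means were 46.8 ± 30.9 CPM in EtOH libraries and 124 ± 54.5 CPM in controls (SD, n = 4 each), with a log2 fold change of -1.40 (SE 0.48, adjusted p = 0.0922).

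**Figure D1:**
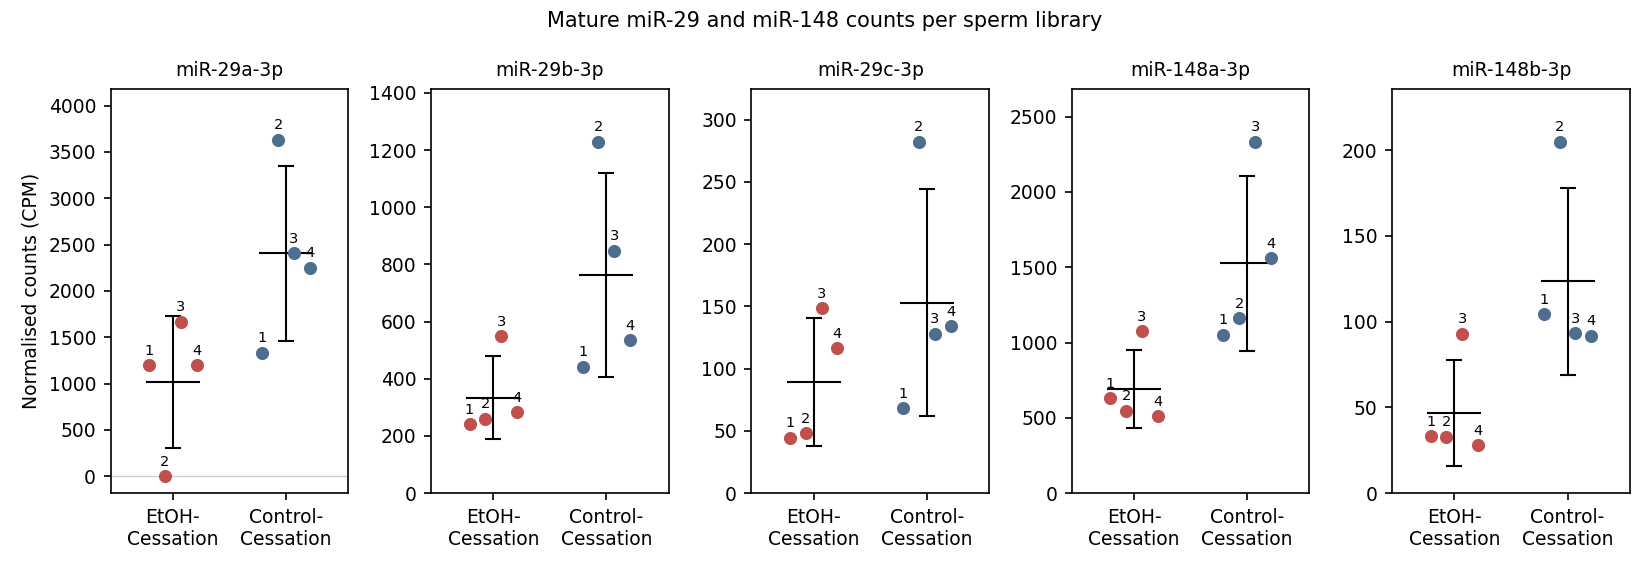
Level in CPM (vertical axes, linear) of each miRNA in the 4 EtOH-Cessation and 4 Control-Cessation libraries, numbered by replicate, with the mean and SD in black. EtOH replicate 3 is the highest EtOH library in all 5 panels, and miR-29a-3p is at 0 in EtOH replicate 2.

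The test over all features called 0.186% of them, and 0.137% as lower in EtOH libraries. None of the 5 miRNAs was among those by edgeR, while 3 of 5 (miR-29b-3p, miR-148a-3p and miR-148b-3p) were lower at an unadjusted p below 0.05, as were 9.15% of all features and 73.9% of the 199 mature miRNAs tested. DESeq2 called 1 of the 5 lower, miR-148a-3p (adjusted p = 0.0432), beside 3.95% of all features and 57.3% of mature miRNAs. limma voom called miR-148a-3p and miR-148b-3p lower (adjusted p = 0.0366 and 0.0293), beside 2.34% and 36.7%. The edgeR calls differed when EtOH replicate 3 was left out. Without it, miR-29b-3p, miR-148a-3p and miR-148b-3p were lower, with log2 fold changes of -1.63, -1.53 and -2.07 (adjusted p = 0.0227, 0.0227 and 0.0105), beside 3.63% of all features and 64.3% of mature miRNAs. Without EtOH replicate 2, 0 of the 5 were called, beside 1.83% of all features and 32.3% of mature miRNAs called lower. All 4 EtOH libraries lay below all 4 controls for 0 of the 5 miRNAs, against 7.81% of all features and 53.3% of mature miRNAs.

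The 5 miRNAs went with their class. Their median log2 fold change was -1.19, against -1.62 for the 199 mature miRNAs, of which 196 were fitted below 0, and -0.09 for all features. Each of the 5 lay above the mature median. miR-148b-3p was nearest to it, with 134 of 199 mature miRNAs at a lower value, and miR-29c-3p was farthest, with 184 of 199 at a lower value. The other members lay between these.

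**Figure D2:**
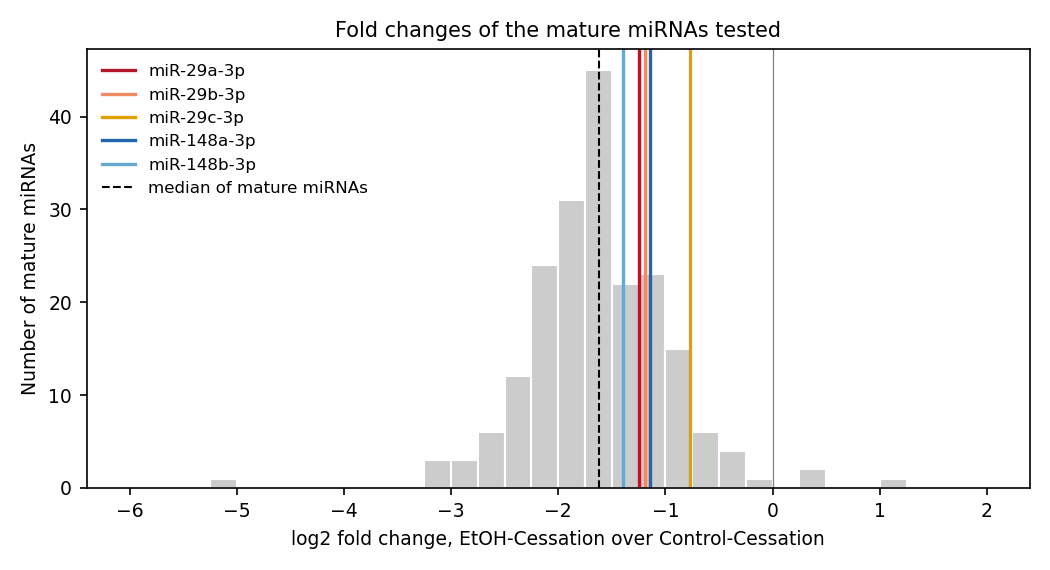
Number of mature miRNAs (vertical axis) by log2 fold change, EtOH-Cessation over Control-Cessation (horizontal axis), for the 199 tested. Coloured lines mark the 5 miRNAs, between -1.40 and -0.77, and the dashed line the median of -1.62.

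Within the miRNA pool the levels of the 5 miRNAs did not pass a test in either direction. When miRNA features alone were fitted, the log2 fold changes were 0.062, 0.24, 0.70, 0.11 and -0.021 for miR-29a-3p, miR-29b-3p, miR-29c-3p, miR-148a-3p and miR-148b-3p (SE 1.40, 0.29, 0.43, 0.41 and 0.30; adjusted p = 0.993, 0.877, 0.630, 0.970 and 0.993). The mature median in that fit was -0.14, and 0.415% of the 241 features tested passed in either direction. The standard errors leave room for changes of either sign. miR-29a-3p took 1.33%, 0%, 1.78% and 1.74% of the miRNA counts in EtOH replicates 1 to 4, and 0.696%, 1.13%, 1.24% and 1.27% in control replicates 1 to 4. With EtOH replicate 2 set aside after its 0% was seen, the other EtOH libraries lay above every control in this share. How many other miRNAs do so was not counted, and the closest values were 1.33% and 1.27%. Without EtOH replicate 2, the log2 fold change of miR-29a-3p within miRNAs was 0.50 (SE 0.32, adjusted p = 0.780). miR-29c-3p took 0.0492%, 0.0816%, 0.158% and 0.169% in EtOH libraries and 0.0354%, 0.0879%, 0.0657% and 0.0758% in controls, with EtOH replicates 3 and 4 above every control. The mean share of miR-29b-3p was 0.426% ± 0.130 in EtOH libraries and 0.338% ± 0.0898 in controls (SD, n = 4 each). That of miR-148a-3p was 0.877% ± 0.203 in EtOH libraries and 0.747% ± 0.370 in controls, and that of miR-148b-3p was 0.0580% ± 0.0284 in EtOH libraries and 0.0545% ± 0.00673 in controls. Each of these 3 differences was smaller than 1 SD of either group.

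**Figure D3:**
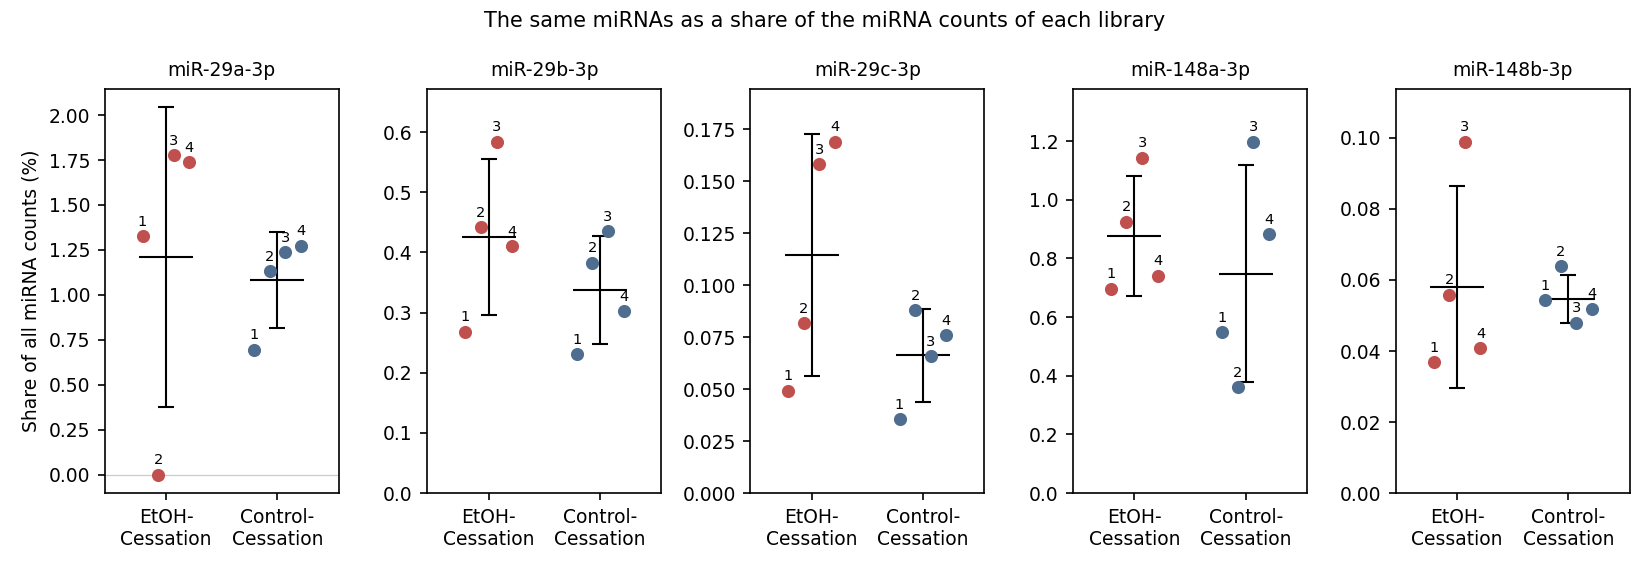
Share of the library's miRNA counts in percent (vertical axes, linear) for each miRNA, in EtOH-Cessation and Control-Cessation libraries numbered by replicate, with mean and SD in black. The groups overlap in every panel. miR-29a-3p lies at 0 in EtOH replicate 2 and above the controls in EtOH replicates 1, 3 and 4.

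The balance within each family varied between libraries of the same group. Per read of miR-29b-3p there were 4.96, 3.04 and 4.23 reads of miR-29a-3p in EtOH replicates 1, 3 and 4, and 3.02, 2.96, 2.84 and 4.22 in control replicates 1 to 4. miR-29c-3p came to 18.4%, 18.5%, 27.1% and 41.1% of miR-29b-3p in EtOH replicates 1 to 4, and to 15.4%, 23.0%, 15.1% and 25.1% in controls. Reads of miR-148a-3p per read of miR-148b-3p were 18.9, 16.6, 11.6 and 18.2 in EtOH libraries, and 10.1, 5.67, 24.97 and 17.0 in controls, where control replicate 2 was lowest and control replicate 3 highest. These ratios overlapped between the groups.

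**Figure D4:**
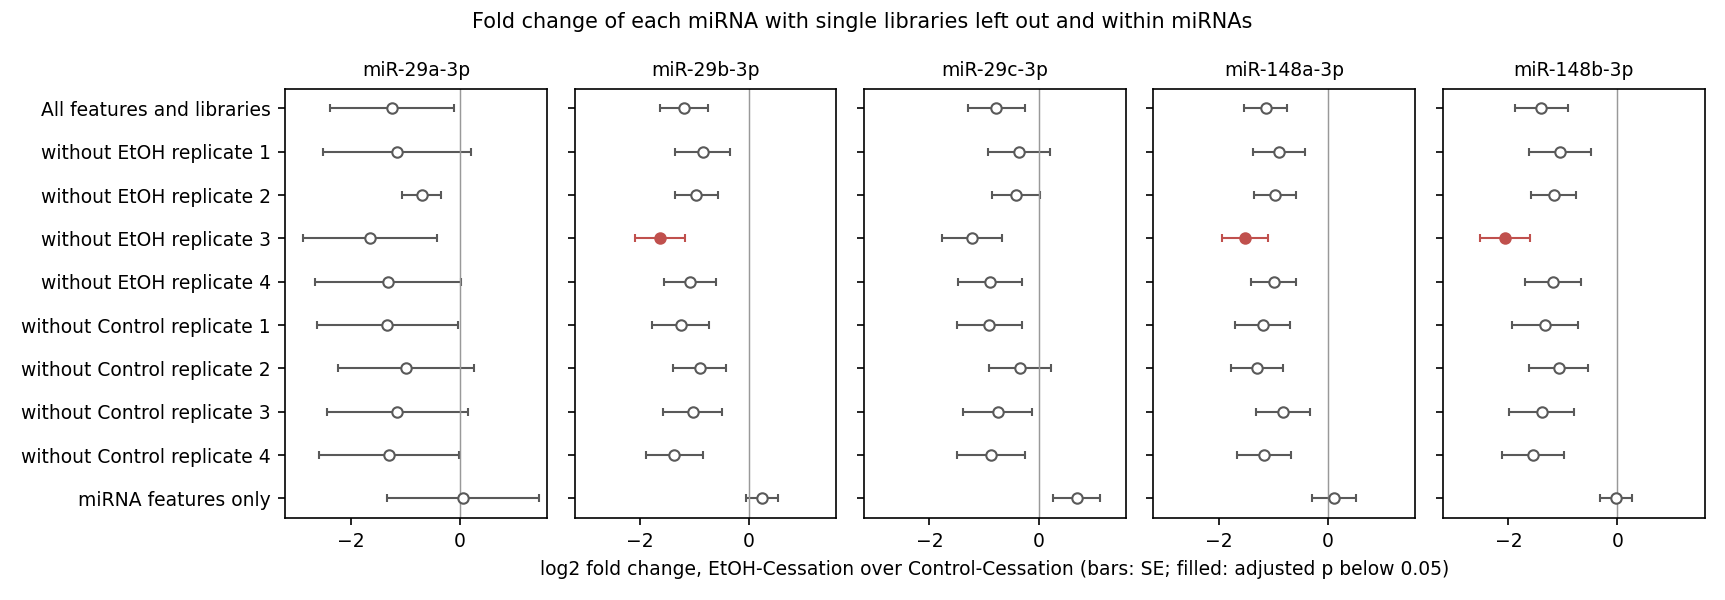
Log2 fold change with SE (horizontal axes) for each miRNA, from the fit of all features with all libraries, with each library left out, and within miRNA features alone. Filled points have an adjusted p below 0.05 and occur only without EtOH replicate 3, for 3 of the 5 miRNAs.

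Markers of other cell types also varied between libraries, not always with these values. The smooth muscle miRNAs (3 of 4 with a row) summed to 1324 to 3412 CPM in EtOH libraries and 1812 to 38696 CPM in controls. Their highest library, control replicate 2, was also the highest for miR-29a-3p, miR-29b-3p, miR-29c-3p and miR-148b-3p. Without control replicate 2, the log2 fold changes of miR-29a-3p, miR-29b-3p, miR-29c-3p and miR-148b-3p were -0.99, -0.91, -0.34 and -1.08. That of miR-148a-3p was -1.30. The median of the mature miRNAs was -1.31 in that fit, against -1.62 with all libraries. Without EtOH replicate 1, the log2 fold changes of the 5 miRNAs were, in the same order, -1.15, -0.85, -0.36, -1.05 and -0.90. The mature median was then -1.46. In EtOH libraries, striated muscle miRNAs (2 of 3 with a row) summed to 133 to 373 CPM, red blood cell miRNAs (3 of 3) to 39.2 to 88.6 CPM and leukocyte miRNAs (4 of 5) to 22.0 to 129 CPM. In controls the same sums were 343 to 3909, 80.3 to 916 and 222 to 328 CPM. Control replicate 3, highest for miR-148a-3p, had the lowest control sums of smooth muscle, striated muscle and red blood cell miRNAs. The epithelial miRNAs (4 of 5) summed to 1065 to 2676 CPM in EtOH libraries and 1191 to 4776 CPM in controls. Control replicate 3 was highest, as it was for miR-148a-3p. Isolated zeros entered the leukocyte and epithelial sums. miR-142a-5p, of the leukocyte list, was at 0 in EtOH replicates 1 and 2 and control replicate 2. Where it had reads, it took most of the leukocyte sum. miR-141-3p, of the epithelial list, was at 0 in 4 libraries. The liver miRNA miR-122-5p had 0.347 to 5.99 CPM in EtOH libraries and 1.26 to 35.8 CPM in controls. Messenger RNAs of leukocytes, fibroblasts and red blood cells summed to 1.40 to 2.45, 7.85 to 35.7 and 0.953 to 13.0 CPM in EtOH libraries, and to 2.13 to 4.95, 16.8 to 37.6 and 11.4 to 26.7 CPM in controls. The part of these cells in the miRNA differences was not tested.

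By the shape of the profile over the 8 libraries, the miRNAs nearest to miR-148a-3p among 75 with at least 100 CPM were miR-200b-3p, miR-10b-5p and miR-10a-5p, which differed from it by a root mean square of 0.42, 0.43 and 0.46 on the log2(CPM + 1) scale after centring. The median over the 75 was 0.73, and miR-148b-3p lay at 0.62. For miR-29a-3p the nearest, miR-872-5p, miR-465b-5p and miR-741-3p, lay at 2.88, 2.90 and 2.91 against a median of 3.19, but the 0 in EtOH replicate 2 set these distances, and they say little of the profile's shape. Over the 7 other libraries the nearest were miR-34c-5p, miR-26a-5p and miR-182-5p, at 0.30, 0.36 and 0.37 against a median of 0.63, with miR-29b-3p at 0.30 and miR-29c-3p at 0.45.

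The other arms and the precursors were rare. The 5p arms of the same precursors had 6 rows, with at most 10 reads in any library, and summed to 34 reads in EtOH libraries and 66 in controls, out of 22272612 and 17678198 counts. Rows with precursor names, in which a read may stand under both the miRNA and the hairpin class, summed to 142 reads in EtOH libraries and 56 in controls, while the mature forms summed to 56887 in EtOH libraries and 80054 in controls. Of 12 such rows, 11 had more reads in EtOH libraries, as did 53.9% of all 755 precursor rows, but the EtOH libraries also held more counts in all. By mean CPM, 9 of the 12 were higher in EtOH libraries, as were 48.1% of precursor rows. The mir-29c row of the miRNA class had 13, 0, 12 and 6 reads in EtOH libraries and 0, 1, 0 and 2 in controls, but fell under the filter, and without a filter its adjusted p was 0.413 (unadjusted p = 0.00267). Its hairpin row had 14, 0, 16 and 10 reads in EtOH libraries, against 4, 8, 6 and 8 in controls, which came to a mean of 1.47 ± 0.996 CPM in EtOH libraries and 1.61 ± 0.523 CPM in controls (SD, n = 4 each). The mir-29b-2 hairpin row, from the same locus, had 3, 2, 0 and 3 reads in EtOH libraries and 0 in every control.

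Fragments of the target messenger RNAs were sparse. Of 20 DNA methylation genes, 18 had exon rows and 5 had a feature that passed the filter, of which 0 were called in either direction by edgeR and 1 was higher at an unadjusted p below 0.05, as were 36.8% of exon features. Their median log2 fold change was 0.22, against 0.70 for the 4600 exon features. Dnmt3a, summed over exons, had 4.63, 8.44, 6.53 and 6.76 CPM in EtOH libraries, and 2.37, 7.70, 5.05 and 5.96 CPM in controls, and its tested exon had a log2 fold change of 0.22 (SE 0.40, adjusted p = 0.797). Dnmt1 had 3.23, 13.6, 4.36 and 6.24 CPM in EtOH libraries, and 3.56, 1.93, 3.03 and 2.87 CPM in controls, with the highest value in EtOH replicate 2. Dnmt1 and Dnmt3b had no exon that could be tested, and Dnmt3b had 9 reads in EtOH libraries and 10 in controls. Dnmt3l, a cofactor of the de novo enzymes in germ cells, had 2 reads in each group, and Dnmt3c, a rodent enzyme of the male germ line, had no row.

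None of the few tested exons of other known targets was called by edgeR, beside 0.186% of all features. Of 12 miR-29 target genes, 2 had a tested exon, with log2 fold changes of -0.06 for Mcl1, an anti-apoptotic factor (adjusted p = 0.954), and 0.23 for Lamc1, a laminin chain (adjusted p = 0.852). Col1a2, a collagen chain, had 6.72 ± 4.79 CPM summed over exons in EtOH libraries and 10.5 ± 2.26 CPM in controls (SD, n = 4 each), and 2 genes of this list, Col1a1 and Col3a1, are also fibroblast markers. None of 5 miR-148 target genes had a tested exon. Abca1, a cholesterol exporter, had 12.1 ± 13.0 CPM in EtOH libraries and 4.75 ± 1.74 CPM in controls (SD, n = 4 each). Rock1, a kinase acting on the cytoskeleton, had 11.02 ± 7.51 CPM in EtOH libraries and 4.09 ± 1.95 CPM in controls. EtOH replicate 2, the library with the most epididymal transcripts, had the highest value of both.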

How the data were processed

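The submitters' processing notes name cutadapt, and per the labels Read1 alone was used. The authors deposited raw counts for each feature of several annotation classes, without normalization. Not given in the sources used here are the aligner, build, annotation and treatment of multiply matching reads, so reads shared by near-identical members may be split in unknown ways, and coordinates come from the reference alone. Columns were matched to samples by title, and groups taken from the treatment label.

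Features were kept with filterByExpr (minimum count 10, minimum total 15), scaled by TMM factors, and compared by edgeR 4.0.16's two-sided quasi-likelihood F test (R 4.3.3). P-values were adjusted over all features (Benjamini-Hochberg), and 0.05 was the threshold. SE is the fold change over the square root of F. CPM use scaled library totals. Steps were tested on simulated data. The alternatives were other scalings and filters, DESeq2 1.42.0, limma 3.58.1 voom with quality weights, miRNA features alone, each library left out, and EtOH libraries of either identifier form. The fit within miRNAs without EtOH replicate 2, and the profiles nearest to miR-29a-3p without that library, were added after the data were seen.

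The members, gene and marker lists were chosen with earlier results of these data known. Named were all members, their other arms and precursors, the 3 nearest profiles to the most abundant member of each family, the Dnmt genes, and up to 3 target genes by mean count, of which some are not reported here. The nearest profiles of other members and the distances between members were chosen after their values were seen.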

Additional observations from a re-analysis of the deposited data

Results flagged for a closer look

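In 64 groups of 4 values, 9 held a highest value that stood apart from the others by Dixon's gap-to-range ratio. Chance flags about 1 in 20 groups if values are normally distributed and groups independent. These groups share the same libraries, so the 9 cannot be set against that rate. Among EtOH libraries, EtOH replicate 3 stood apart for miR-29b-3p, at 549 CPM, and for miR-148b-3p, at 93.0 CPM. Among controls, control replicate 2 stood apart for miR-148b-3p, at 205 CPM, for miR-29b-3p per read of miR-148a-3p, at 1.06, for the miRNA share of counts, at 27.7%, and for the smooth muscle miRNAs, at 38696 CPM. Control replicate 4 stood apart in miR-29a-3p per read of miR-29b-3p, at 4.22. EtOH replicate 2 stood apart for epididymal transcripts, at 15022 CPM, and for the liver miRNA miR-122-5p, at 5.99 CPM. What these libraries share was not tested.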

How the results depend on the processing

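The 5 fold changes kept their sign in every fit across feature classes, and miR-29a-3p gave no value in the fit without features with isolated zeros. In the fit of miRNA features alone, those of miR-29a-3p, miR-29b-3p, miR-29c-3p and miR-148a-3p were above 0, at 0.062, 0.24, 0.70 and 0.11, since the class itself is then the scale. With EtOH replicate 2 also left out, they were 0.50, 0.23, 0.83 and 0.10, and 0.032 for miR-148b-3p. The number of the 5 past the threshold was 0 in the reported fit, 1 with DESeq2 (miR-148a-3p, -1.03), 2 with limma voom (miR-148a-3p, -1.31, and miR-148b-3p, -1.54), 3 with the EtOH libraries of M identifiers alone (miR-29b-3p, miR-29c-3p and miR-148b-3p, at -1.77, -1.90 and -2.07), 0 with those of EM identifiers alone, and 0 to 3 with single libraries left out. With single libraries left out, log2 fold changes ranged from -1.64 to -0.70 for miR-29a-3p, -1.63 to -0.85 for miR-29b-3p, -1.22 to -0.34 for miR-29c-3p, -1.53 to -0.82 for miR-148a-3p and -2.07 to -1.05 for miR-148b-3p.

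Over all features, 19 passed in the reported fit. The count was 9 with median-of-ratios factors, 818 with library size alone, 1 with piRNA cluster totals, 1747 with DESeq2, 655 with limma voom, 1642 with no filter, 11 with a mean count of at least 10, 2572 with M and 19 with EM identifiers alone, 665 without features with isolated zeros, 1 with miRNA features only, with or without EtOH replicate 2, and 3 to 2332 with single libraries left out (346, 601, 2332 and 3 without EtOH replicates 1, 2, 3 and 4, and 8, 10, 8 and 20 without control replicates 1, 2, 3 and 4). The cause was not tested. Differences in share of miRNA counts, EtOH minus control, moved by less than 1 SD with the most abundant miRNA left out of the total. With single libraries left out they ranged from -0.0626 to 0.529 percentage points for miR-29a-3p, 0.0360 to 0.141 for miR-29b-3p, 0.0301 to 0.0700 for miR-29c-3p, 0.000703 to 0.279 for miR-148a-3p and -0.0101 to 0.0106 for miR-148b-3p. No paired analysis was possible because the replicate numbers follow accession order. Few reads lay behind the precursor, 5p arm and target fragment values.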

Other observations

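The nearest profiles to miR-29b-3p were miR-22-3p, miR-26a-5p and miR-21a-5p, at 0.35, 0.38 and 0.42 on the centred log2(CPM + 1) scale, and miR-148b-3p, of the other family, lay at 0.37. miR-22-3p had 345 ± 104 CPM in EtOH libraries and 1130 ± 466 CPM in controls (SD, n = 4 each). For miR-29c-3p and miR-148b-3p alike the nearest was miR-34b-5p, at 0.52 and 0.33, with 406 ± 256 CPM in EtOH libraries and 938 ± 390 CPM in controls (SD, n = 4 each).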
